A study of Mus musculus with 10 samples.

Results

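Laminins are large glycoproteins built from 1 alpha, 1 beta and 1 gamma chain, and nidogens are the linker proteins that tie the laminin network to collagen IV. Their genes were followed here in endothelial cells given the transcription factor GATA4. The genes were taken by symbol from the platform annotation: the alpha chain genes Lama3, Lama4 and Lama5, the beta chain genes Lamb1, Lamb2 and Lamb3, the gamma chain gene Lamc1, and the nidogen genes Nid1 and Nid2. All 9 were measured, each by 1 feature, among 23111 named genes in all.

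The cells were bEnd3, an endothelial line from mouse brain that polyoma middle T antigen keeps dividing. The 5 Gata4 samples carried a lentivirus whose EF1α promoter drives a codon-optimized mouse Gata4 cDNA together with mCherry and puromycin resistance. The 5 empty-vector (EV) samples carried the same virus without Gata4. Both groups were selected with puromycin, and the titles number 5 biological replicates in each. Whether these were separate transductions is not said, so the p-values rest on a spread between samples that may be technical. Total RNA was read on Affymetrix microarrays. Levels below are the authors' RMA values on the log2 scale, changes are Gata4 minus EV on that scale, and ± is the SD over 5 samples unless SE is named. A gene is called higher or lower where limma gave an adjusted p under 0.05 over all 23111 genes.

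In the laminins of the basement membrane of blood vessels, the alpha chain carries the globular domains that bind integrins and dystroglycan. Endothelial cells are known for the alpha 4 and alpha 5 chains, joined to beta 1 or beta 2 and to gamma 1. The alpha 3 and beta 3 chains are chains of epithelial laminins. The sinusoidal endothelium of the liver, in which GATA4 acts, has no continuous basement membrane, unlike the brain capillaries from which bEnd3 derives.

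Correlations between arrays were 0.9964 to 0.9977 within a group and 0.9841 to 0.9863 between groups. On the second principal component (5.26% of the variance), EV samples 1 and 2 (-12.9 and -14.4) lay apart from EV samples 3 to 5 (5.55 to 13.3), with the Gata4 samples between (-5.04 to 4.90). The Gata4 feature averaged 5.08 ± 0.17 in Gata4 samples and 4.75 ± 0.16 in EV samples, a change of 0.34 (adjusted p = 0.017; exact two-sided permutation p = 0.024), with overlapping groups, and it need not detect a codon-optimized cDNA. Of the endothelial markers, 10 of 10 stood above the median level of all genes (4.13), with means of 9.66 to 13.7. Of these markers, 4 were called lower (Kdr by -1.18, Cldn5 by -1.05, Esam by -0.70 and Cdh5 by -0.25) and 3 higher (Tek by 1.53, Tie1 by 0.34 and Emcn by 0.20). In either direction 25.6% of all genes were called, and 46.0% of those above the median level. The part of these markers in the laminin changes was not tested. In RNA of whole cultures, fewer cells of a type and less RNA per cell cannot be told apart.

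The set did not move as a block. Lama4, Lamb1 and Lamc1 were higher in Gata4 samples, Lama5 and Lamb2 were lower, and Lama3, Lamb3, Nid1 and Nid2 did not pass the test. That is 5 of 9 genes called, where 25.6% of all genes were called, 12.4% higher and 13.2% lower. Call rates depend on the level: among genes above the median level 46.0% were called, and 5 of the 7 laminin and nidogen genes above it were. The 9 genes were chosen with earlier results of these data known, so these shares are no test of an excess. The median change of the 9 genes was -0.01, against -0.0072 over all genes. The groups did not overlap for the 5 called genes, as for 21.1% of all genes, and for each of them an exact two-sided permutation test of the group labels gave p = 0.0079, the smallest it can give. Among genes above the median level, the groups were apart for 38.6%.

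**Figure D1:**
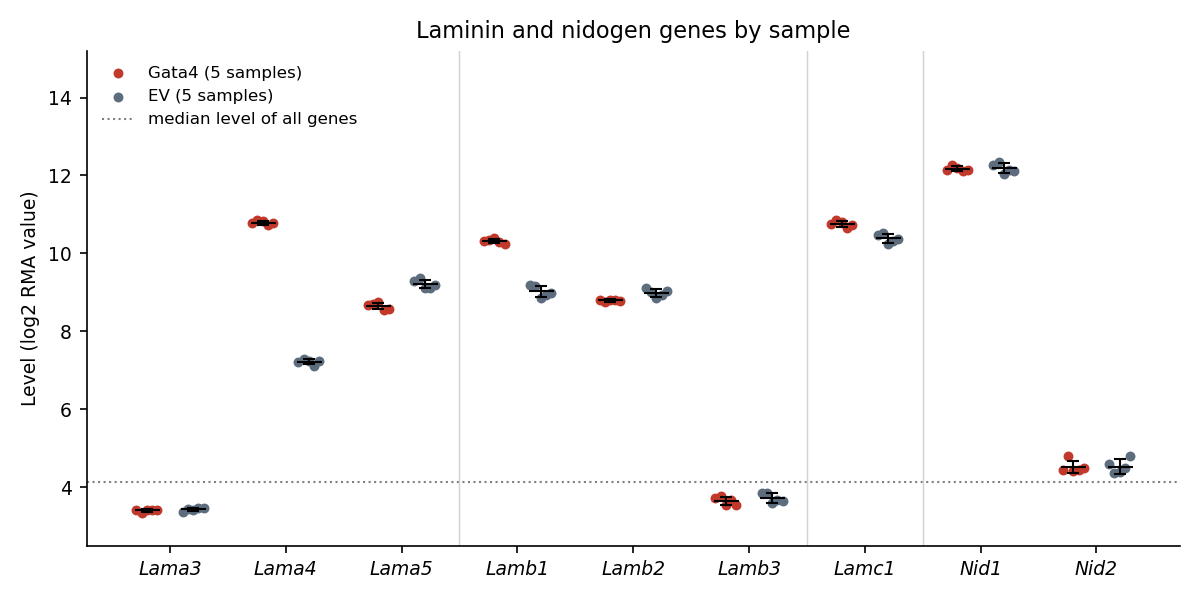
Levels of the 9 genes (log2 RMA value, vertical axis) in the 5 Gata4 samples (left of each pair) and the 5 EV samples (right); bars are the mean and SD, the dotted line is the median level of all genes (4.13). Lama4 and Lamb1 stand clearly higher in Gata4 samples and Lama5 lower, while Lama3 and Lamb3 lie below the dotted line in both groups.

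Among the alpha chains, Lama4, which encodes the alpha 4 chain found in nearly all endothelial basement membranes, showed the largest change of the 9 genes. Its level was 10.77, 10.87, 10.82, 10.74 and 10.77 in Gata4 samples 1 to 5, against 7.22, 7.29, 7.25, 7.12 and 7.24 in EV samples 1 to 5. Every Gata4 sample lay far above every EV sample, and each group spanned little. The change was 3.57 ± 0.05 (SE), an 11.9-fold rise (95% interval 11.0 to 12.8; adjusted p = 2.5e-13), the 28th largest rise of all genes. In EV samples Lama4 was not near the low end of the scale: its mean of 7.22 ± 0.07 was above the median level of all genes.

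Lama5 encodes the alpha 5 chain, the other endothelial alpha chain. It fell, with levels of 8.66, 8.71, 8.75, 8.55 and 8.58 in Gata4 samples 1 to 5 and of 9.29, 9.36, 9.11, 9.12 and 9.19 in EV samples 1 to 5. The groups were apart, with the highest Gata4 sample below the lowest EV sample. The change was -0.57 ± 0.06 (SE), or 1.48-fold lower (95% interval 1.35 to 1.63; adjusted p = 1.8e-05). EV samples 1 and 2 were the highest of their group, and without them the change was -0.49 (adjusted p = 0.0002).

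Lama3, the alpha 3 gene of epithelial laminins, stayed at the low end of the scale in every sample, between 3.34 and 3.43 in Gata4 samples and between 3.37 and 3.47 in EV samples. Values this low may be background, since the table carries no detection call. Its change of -0.03 did not pass (adjusted p = 0.74; 95% interval -0.12 to 0.07).

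Of the 4 laminin chain genes outside the set that were listed for comparison, 3 were measured, and 1 of them rose. Lama1 encodes the alpha 1 chain, a chain of embryonic and epithelial basement membranes. It stood at 7.31, 7.06, 7.16, 7.10 and 7.003 in Gata4 samples 1 to 5 and at 3.71, 3.82, 3.74, 3.60 and 3.49 in EV samples 1 to 5. The EV values were below the median level of all genes and may be background, whereas the Gata4 values were well above it. Lama1 rose by 3.46 ± 0.07 (SE; adjusted p = 4.9e-12), a measured 11.0-fold that can be understated if the EV values are background. Lama2, the alpha 2 gene of muscle and nerve laminins, and Lamc3, a gamma 3 chain gene, had low levels in both groups (3.56 and 3.65 in Gata4 samples, 3.66 and 3.71 in EV samples) and did not pass (adjusted p = 0.33 and 0.68).

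**Figure D2:**
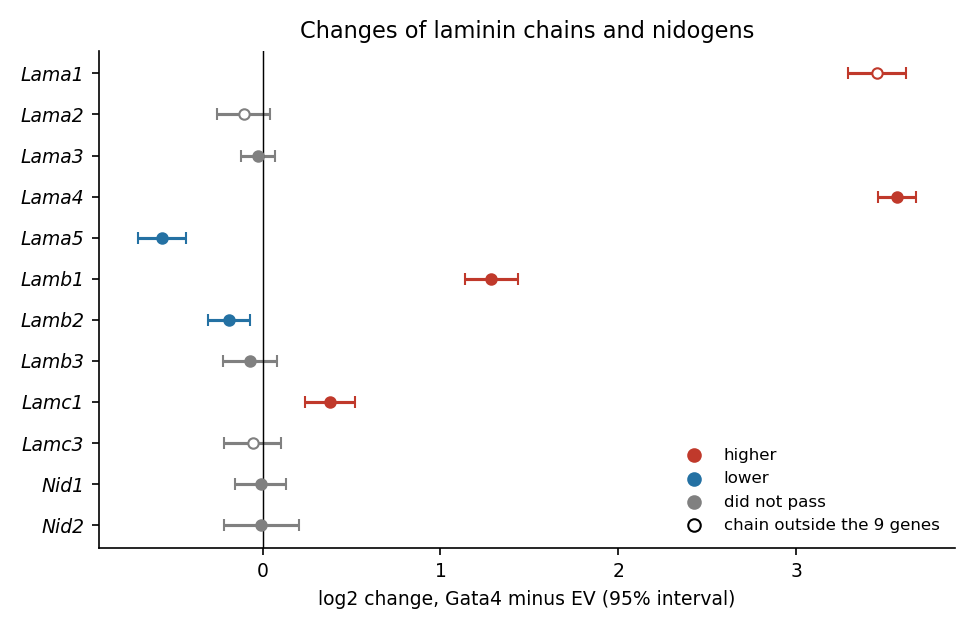
Change of each laminin chain and nidogen gene (log2, Gata4 minus EV, horizontal axis) with its 95% interval; filled points are the 9 genes, open points the other 3 measured chains, and colour gives the call. Lama4 (3.57) and Lama1 (3.46) lie far to the right, Lamb1 (1.29) and Lamc1 (0.38) less so, and Lama5 (-0.57) and Lamb2 (-0.19) lie left of 0.

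The beta chains also moved in opposite directions. Lamb1 encodes the beta 1 chain, the partner of alpha 4 and alpha 5 in most vessels. Its level was 10.32, 10.34, 10.38, 10.28 and 10.25 in Gata4 samples 1 to 5, against 9.19, 9.17, 8.85, 8.94 and 8.98 in EV samples 1 to 5. The Gata4 samples were all higher and less spread (SD 0.05 against 0.15 in EV samples), and within the EV group samples 1 and 2 were the highest. Lamb1 rose by 1.29 ± 0.07 (SE), or 2.44-fold (95% interval 2.20 to 2.71; adjusted p = 2.0e-08), and by 1.39 without EV samples 1 and 2.

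Lamb2, the gene of the beta 2 chain that replaces beta 1 in a subset of vascular and synaptic laminins, was slightly lower. It had 8.81, 8.74, 8.81, 8.81 and 8.79 in Gata4 samples 1 to 5 and 9.10, 9.01, 8.84, 8.93 and 9.04 in EV samples 1 to 5. The groups were close without overlapping: the highest Gata4 sample was at 8.81 and the lowest EV sample at 8.84. The change was -0.19 ± 0.05 (SE), 1.14-fold lower (95% interval 1.05 to 1.24; adjusted p = 0.019). This call was lost without EV samples 1 and 2 (-0.14, adjusted p = 0.12) and when the arrays were scaled on reference genes (-0.16, adjusted p = 0.20; -0.22, adjusted p = 0.091 without the reference gene Tbp).

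Lamb3, the epithelial beta 3 gene, ranged between 3.54 and 3.76 in Gata4 samples and between 3.58 and 3.86 in EV samples, where values may be background. Lamb3 missed the threshold (change -0.07, adjusted p = 0.54; 95% interval -0.23 to 0.08).

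Lamc1 encodes the gamma 1 chain, shared by most laminins. Its level was 10.75, 10.87, 10.82, 10.66 and 10.73 in Gata4 samples 1 to 5 and 10.48, 10.52, 10.23, 10.32 and 10.38 in EV samples 1 to 5. All Gata4 samples were above all EV samples, by a modest step. Lamc1 rose by 0.38 ± 0.06 (SE), or 1.30-fold (95% interval 1.18 to 1.43; adjusted p = 0.00063), and by 0.46 without EV samples 1 and 2.

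The nidogen genes did not pass the test. Nid1, which encodes a nidogen that binds the gamma 1 chain, was among the genes with the highest levels in both groups: 12.14, 12.28, 12.19, 12.11 and 12.14 in Gata4 samples 1 to 5 and 12.28, 12.35, 12.05, 12.13 and 12.10 in EV samples 1 to 5. The groups overlapped fully. Its change was -0.01 (adjusted p = 0.94), with a 95% interval of -0.15 to 0.13 that holds changes of up to about 1.11-fold lower or 1.09-fold higher. Nid2, the second nidogen gene, ranged from 4.41 to 4.79 in Gata4 samples and from 4.35 to 4.81 in EV samples, just above the median level. Its change was -0.01 (adjusted p = 0.98; 95% interval -0.22 to 0.20).

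The EV group was not uniform for these genes. EV samples 1 and 2 were both above EV samples 3 to 5 for 5 of the 9, Lama5, Lamb1, Lamb3, Lamc1 and Nid1, by 0.18 to 0.26 on average. The same order held for 15.0% of all genes and for 19.7% of those above the median level. For Lama4, the 2 EV samples were 0.06 higher on average and the order was not kept. The part of this step in the changes above was not tested beyond leaving those samples out.

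Because probes differ in brightness, levels of different features do not say which chain is more abundant, and only the change in the difference between chains on the same array can be read. The difference Lama4 minus Lama5 was 4.13 ± 0.04 (SE) higher in Gata4 samples than in EV samples, so that the ratio of Lama4 to Lama5 signal was 17.6-fold higher. In single arrays it ranged from 2.07 to 2.19 in Gata4 samples and from -2.07 to -1.87 in EV samples, and its 0 has no meaning. Lama4 minus Lamc1 changed by 3.19 ± 0.05 (SE), so the RNA signal of Lama4 moved much more than that of Lamc1. Chain protein and laminin trimers were not measured.

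The difference Lamb1 minus Lamb2 was 1.48 ± 0.05 (SE) higher in Gata4 samples, a 2.79-fold shift of the signal ratio towards Lamb1. Lamb1 minus Lamc1 changed by 0.91 ± 0.03 (SE). The groups were apart for these 4 differences. Lama4 minus Lama3 and Lamb1 minus Lamb3 changed by 3.60 and 1.36, but Lama3 and Lamb3 may be background in both groups, so these values only restate the changes of Lama4 and Lamb1. The groups overlapped for Nid1 minus Nid2, with a mean of 7.65 ± 0.10 in Gata4 samples and 7.65 ± 0.25 in EV samples. No p-value is given for differences between members of a set that was assembled with earlier results known.

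**Figure D3:**
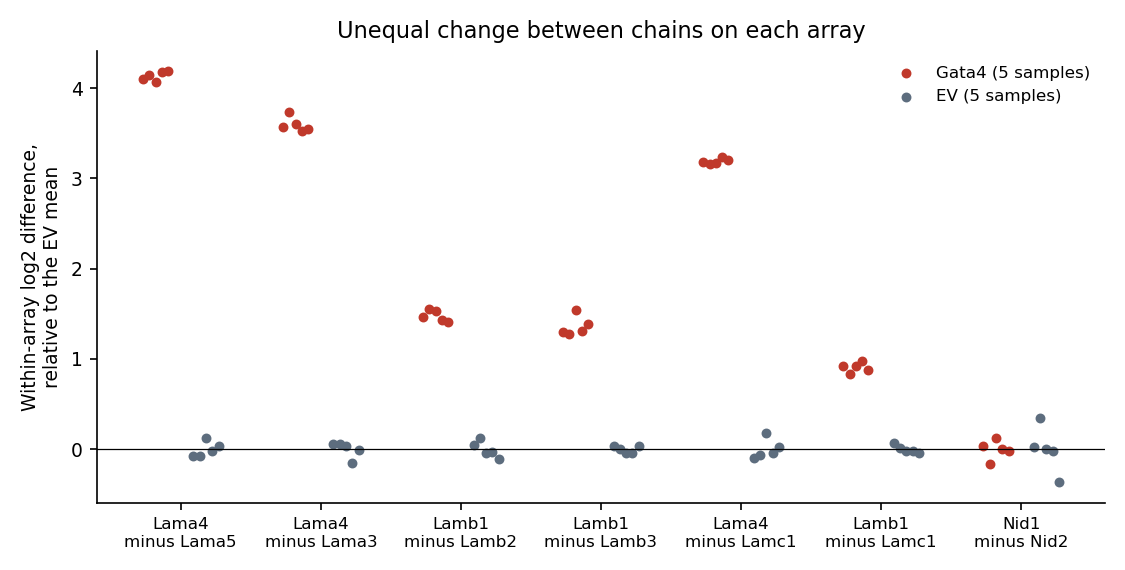
Within-array log2 differences between 2 genes (vertical axis, set to 0 at the EV mean of each pair) for 5 Gata4 samples (left) and 5 EV samples (right). The differences that involve Lama4 or Lamb1 are higher in every Gata4 sample, those against Lama3 and Lamb3 being taken from values that may be background, and Nid1 minus Nid2 overlaps around 0.

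The sequence before the transcription start is shown for the called genes found in the RefSeq promoter table (GRCm38.p6), because a factor that binds GATA letters was added to these cells. The windows are the 250 bases before the start, 5′ to 3′ on the gene's strand: chr12:31265043-31265292 on the plus strand for Lamb1, chr2:180225860-180226109 on the minus strand for Lama5 and chr9:108479612-108479861 on the plus strand for Lamb2. Capitals mark the 4 letters GATA on either strand.
Lamb1: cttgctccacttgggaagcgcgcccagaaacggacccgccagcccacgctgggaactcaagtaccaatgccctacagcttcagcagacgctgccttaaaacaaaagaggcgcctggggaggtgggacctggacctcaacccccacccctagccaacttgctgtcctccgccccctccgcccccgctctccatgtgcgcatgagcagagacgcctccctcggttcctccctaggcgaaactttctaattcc
Lama5: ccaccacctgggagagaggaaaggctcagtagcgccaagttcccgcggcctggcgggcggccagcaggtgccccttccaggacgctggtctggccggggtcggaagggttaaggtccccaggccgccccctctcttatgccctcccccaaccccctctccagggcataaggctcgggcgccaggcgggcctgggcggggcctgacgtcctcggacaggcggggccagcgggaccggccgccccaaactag
Lamb2: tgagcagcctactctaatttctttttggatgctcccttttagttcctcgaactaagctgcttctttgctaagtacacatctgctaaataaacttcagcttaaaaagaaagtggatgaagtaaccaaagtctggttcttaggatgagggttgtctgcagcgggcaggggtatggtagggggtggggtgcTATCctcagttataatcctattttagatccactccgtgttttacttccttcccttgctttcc

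Windows of 5 of the 9 genes were searched: Lama5, Lamb1, Lamb2, Lamb3 (2 start sites) and Nid1. No window of Lama3, Lama4, Lamc1 or Nid2 was searched. The longer letters that GATA factors prefer, GATA preceded by A or T and followed by A or G, were searched on both strands. They were in 0 of these 6 windows and in 26.5% of the 32851 windows of all genes. The 4 letters GATA alone, which are part of the longer ones, were in 53.6% of all windows. Among these genes they were in 1 window each of Lamb2 (read as TATC, on the other strand) and Nid1. The Lamb1 and Lama5 windows had none, and their GC content was 62.0% and 72.4%, against a median of 52.4% over all windows. These are letters in a short window and no measure of binding.

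Genes whose values followed those of the 2 most changed members were looked up across all 10 samples, by the root mean square difference after each gene was set to 0 at its EV mean. Nearest to Lama4 were Pwwp3b (0.11), the alcohol dehydrogenase gene Adh7 (0.12), the receptor gene for leukaemia inhibitory factor, Lifr (0.13), and Lama1 (0.14), with changes of 3.51, 3.54, 3.56 and 3.46. Nearest to Lamb1 were the co-chaperone gene Dnaja2 (0.079), Ugdh, which encodes the enzyme that makes UDP-glucuronate (0.089), Brwd3 (0.094) and the nuclear envelope gene Syne2 (0.096), with changes of 1.29, 1.30, 1.35 and 1.205. Over 2 groups this likeness is mostly the size of the step between them. Without EV samples 1 and 2, a check added after seeing the data, 1 of the 4 genes nearest to Lamb1 was still among its nearest 4. Leaving out 1 sample at a time kept 3 to 4 of the 4 genes for Lama4 and for Lamb1. The nearest 4 changed in 4 alternatives and stayed in 7 for Lama4, and changed in 9 and stayed in 2 for Lamb1.

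Genes whose products receive laminin at the cell surface changed in both directions. Of 14 laminin receptor genes, 6 were lower (13.2% of all genes were), 2 were higher (12.4% of all genes) and 6 did not pass, with a median change of -0.14 against -0.0072 over all genes. In this list 13 genes lay above the median level, where 46.0% of genes were called. Tested against a 1.2-fold change, 4 were lower and 1 higher. Itgb4, the integrin beta 4 gene of hemidesmosomes, stood at 5.49 ± 0.09 in Gata4 samples and 7.95 ± 0.11 in EV samples, or 5.49-fold lower (adjusted p = 2.2e-11). Mcam, an endothelial adhesion molecule that can bind the alpha 4 chain, was at 9.43 ± 0.10 in Gata4 samples and 11.02 ± 0.12 in EV samples. Itga3, the gene of an integrin alpha chain for laminins with alpha 3 or alpha 5, was at 9.38 ± 0.06 in Gata4 samples and 10.69 ± 0.10 in EV samples. All 3 were lower without overlap. Itga2, the alpha chain gene of a collagen and laminin receptor, was higher, at 10.02 ± 0.16 in Gata4 samples and 8.64 ± 0.18 in EV samples. Dag1, the dystroglycan gene, rose by 0.29 ± 0.05 (SE).

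The other components of the basement membrane were mixed. Of 18 genes, 8 fell, 3 rose and the other 7 missed the threshold, with a median change of -0.04. The 11 calls stand against 25.6% of all genes called and 46.0% of those above the median level, where 12 of the 18 lay, and against a 1.2-fold change 4 genes were called. The rises were small: Agrn (agrin, which binds laminin and dystroglycan) by 0.71, Hspg2 (perlecan) by 0.36 and the collagen IV chain gene Col4a5 by 0.31. Other collagen IV chain genes did not rise. Col4a1 (-0.33) and Col4a2 (-0.32) were lower without overlap, and Col4a3, Col4a4 and Col4a6 did not pass. EV means were 10.98 for Col4a1, 11.07 for Col4a2 and 4.45 for Col4a5. The largest falls were those of Fbln2, which encodes the laminin- and nidogen-binding fibulin 2 (-2.01 ± 0.21 SE), Col18a1, the collagen XVIII gene (-1.83 ± 0.05 SE), and Npnt, which encodes nephronectin (-1.62 ± 0.16 SE). For Hspg2 the groups overlapped.

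Netrins are secreted or membrane-bound proteins that share the laminin N-terminal domain, and netrin 4 can insert into laminin networks. Of 6 netrin genes, 3 were higher and 0 lower by limma (5 and 0 at an unadjusted p under 0.05, 2 and 0 by an exact rank-sum test), where 12.4% of all genes were higher and 13.2% lower. Tested against a 1.2-fold change, 1 was higher. The median change was 0.27. Ntng2 rose by 0.95 ± 0.14 (SE) and Ntn4 by 0.51 ± 0.12 (SE), the groups overlapping for Ntn4. Ntng1 rose by 0.28 at levels of 3.25 ± 0.07 in Gata4 samples and 2.97 ± 0.03 in EV samples, where values may be background.

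Of 13 listed genes for the sugar chain through which dystroglycan binds laminin, 9 were measured. Among them 3 were higher (12.4% of all genes were) and 6 did not pass, with a median change of 0.18. In this list 8 genes lay above the median level, where 46.0% of genes were called in either direction. Against a 1.2-fold change 1 was called. The 3 higher genes were the O-mannose pathway genes Pomgnt2 (0.56 ± 0.08 SE), Pomt2 (0.31 ± 0.05 SE) and Pomt1 (0.18 ± 0.05 SE). The Pomt1 call was lost without EV samples 1 and 2 (adjusted p = 0.052) and under scaling on reference genes (0.089).

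Proteases that act on basement membranes included large changes in both directions. Of 7 genes, 3 fell, 2 rose and the other 2 missed the threshold, with a median change of -0.11, where 25.6% of all genes were called. In this list 6 genes lay above the median level, where 46.0% of genes were called. Plat, the gene of tissue plasminogen activator, was at 10.71 ± 0.07 in Gata4 samples and 7.69 ± 0.19 in EV samples, an 8.11-fold rise, and Bmp1, the gene of a proteinase that cleaves procollagens and laminin chains, rose by 0.40. Tll1, which encodes a relative of BMP1, was at 4.52 ± 0.17 in Gata4 samples and 8.07 ± 0.07 in EV samples, or a measured 11.7-fold lower, which can be understated since the Gata4 values lie near the low end. The urokinase gene Plau fell by 1.97 and the gelatinase gene Mmp2 by 0.63.

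**Figure D4:**
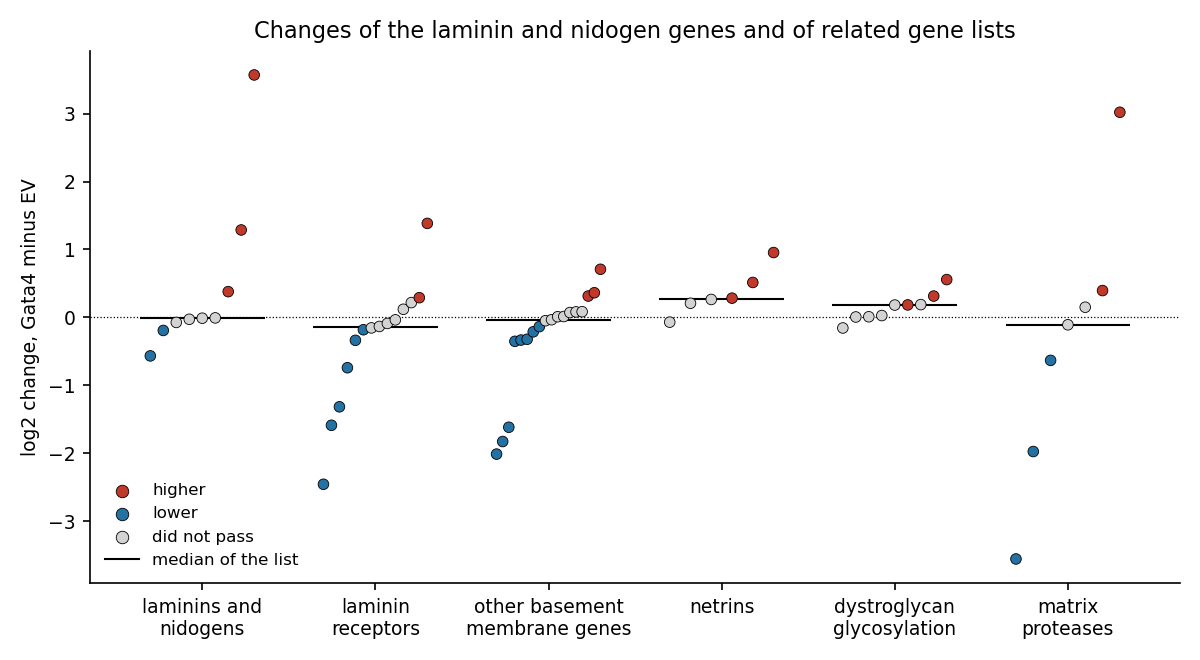
Change of every measured gene (log2, Gata4 minus EV, vertical axis) in the laminin and nidogen set and in 5 related lists; points are genes in order of their change, colour gives the call and bars are medians. The medians lie between -0.14 (laminin receptors) and 0.27 (netrins), while single genes range from -3.55 (Tll1) to 3.57 (Lama4).

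Markers of other cells that make laminins were low. Of 8 mural cell markers 1, Acta2, was above the median level, at 6.36 ± 0.14 in Gata4 samples and 7.12 ± 0.60 in EV samples. Acta2 was called lower (-0.76, adjusted p = 0.025), with overlapping groups. Summed over the list, their log2 values were 30.9 to 31.3 in Gata4 samples and 30.4 to 32.4 in EV samples. Rgs5 rose by 0.32 near the low end. Pdgfrb (0.06), Cspg4 (0.11), Des (0.11), Kcnj8 (0.11), Tagln (-0.19) and Myh11 (-0.13) did not pass. At an unadjusted limma p under 0.05, 1 of the 8 was higher and 2 were lower, against 1 and 0 by the exact rank-sum test. Of 6 fibroblast markers 2 were above the median level, and their summed log2 values were 23.1 to 24.1 in Gata4 samples and 23.1 to 24.98 in EV samples. Col3a1 and Dcn rose by 0.45 and 0.33 from low values, and Pdgfra fell by 1.01, where 12.4% of all genes were higher and 13.2% lower. Of 6 epithelial markers 1 was above the median level and of 4 astrocyte markers 0 were, and 0 of these 10 passed limma's test (1 at an unadjusted p under 0.05, 0 by an exact rank-sum test). The part of other cell types in the laminin changes was not tested.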

How the data were processed

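Values are the authors' deposited log2 levels from RMA, which corrects background, normalizes quantiles and summarises probes, per the submitters' processing notes. Its version, the probe annotation and the build were not given in the sources used here. Quantile normalization gives all arrays 1 distribution, so changes are relative to other genes. Of 23748 features, 23111 had exactly 1 symbol in the platform annotation and the other 637 did not. For arrays, their number limits the precision.

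The comparison used limma 3.58.1 in R 4.3.3 (eBayes without a trend), two-sided, with Benjamini-Hochberg adjustment over the 23111 genes. The fit was tested on simulated data. The members and gene lists were chosen with earlier results of these data known. Shares called in them are therefore no test of an excess of calls. Of 62 genes in 6 related lists 57 were measured; the others were not analysed here. Named by rule were all members, Gata4, the other laminin chains and up to 3 called genes per direction in each other list. The 4 genes nearest to each of the 2 most changed members were also named by rule. The other collagen IV chain genes were named in addition. Alternatives were an intensity trend, filters on low levels, all features, leaving out samples, replicate number as a block, array weights, scaling on reference genes (5 of 8 measured), an exact rank-sum test and a test against a 1.2-fold change.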

Additional observations from a re-analysis of the deposited data

Results flagged for a closer look

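In 4 of 84 groups of 5 values, 1 sample lay far from the others by Dixon's criterion; chance gives about 1 in 20. Lama3 was at 3.34 in Gata4 sample 2, against 3.41 to 3.43 in the other Gata4 samples, and Nid2 was at 4.79 in the same sample, against 4.41 to 4.50. Col18a1 was at 7.95 in Gata4 sample 4, against 8.03 to 8.06, and Pomt2 was at 8.50 in Gata4 sample 1, against 8.64 to 8.69.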

How the results depend on the processing

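Lama4, Lamb1 and Lama5 kept their direction and their call in all 21 alternatives. Tested against a 1.2-fold change, 2072 genes were called in place of 5915, 3 laminin and nidogen genes in place of 5 (Lamb2, -0.19, and Lamc1, 0.38, were lost), and 16 genes of the related lists in place of 31. Lamb2 was also lost without EV samples 1 and 2 (-0.14) and under scaling on reference genes (-0.16), which moved the median of all genes by 0.037. One of the 5 reference genes, Tbp, was itself called lower (-0.30, adjusted p = 0.0017); scaling without it, added after seeing the data, turned the offset between the groups (0.028, against -0.037 with it), and Lamb2 was lost there too (-0.22). For genes that did not pass, the sign of a change near 0 turned: scaling on reference genes gave 0.0095 for Lama3, 0.025 for Nid1 and 0.030 for Nid2 (-0.055, -0.040 and -0.035 without Tbp), and leaving out EV samples 1 and 2 gave 0.015 for Lamb3 and 0.077 for Nid1. Leaving out 1 sample at a time gave -0.045 to 0.030 for Nid1, -0.074 to 0.064 for Nid2 and -0.096 to 0.081 for the difference Nid1 minus Nid2. The cause was not tested. Lama3 and Lamb3 were below the filter at the median level. Same-numbered samples of the groups deviated together only weakly (correlations -0.018 to 0.087), 6 of 10 samples correlated best with their own number, and the numbers are not taken to pair them. With the replicate number as a block, 5644 genes and the same count of 5 laminin and nidogen genes were called, and Pomt1 was lost (adjusted p = 0.055; 0.089 under scaling on reference genes, 0.35 without Tbp). Hspg2 and Ntn4 were not called by the exact rank-sum test (adjusted p = 0.064 for both). Lama3, Lamb3 and the EV level of Lama1 are limited by signal near the low end of the scale, and Nid2 lay just above the median level.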
